A study of Homo sapiens with 12 samples.

Results

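The ID proteins and E proteins are the 7 genes ID1, ID2, ID3, ID4, TCF3, TCF4 and TCF12, of 11963 genes that the array annotation names singly. They were followed through every probe set whose annotation gave one of them as its single symbol, which was 29 of 22215 probe sets, 7 of ID genes and 22 of E protein genes. RNA of RD, an established line of embryonal rhabdomyosarcoma, a tumour of muscle type, was read on 12 Affymetrix GeneChip arrays in 4 groups of 3. The groups were PAX3-FKHR-ER with 4-OHT, PAX3-FKHR-ER without 4-OHT, pK1 with 4-OHT and pK1 without 4-OHT. PAX3-FKHR is the fusion of PAX3 with FKHR (now FOXO1) that marks alveolar rhabdomyosarcoma, and in PAX3-FKHR-ER it is joined to a modified ligand-binding domain of the estrogen receptor that 4-hydroxytamoxifen (4-OHT) activates. pK1 is the empty vector, and both constructs were transduced into the same line. Cells with 4-OHT had received 30 nM for 24 h. The series asked which genes the fusion regulates. The design text speaks of 3 populations per construct, the labels do not say whether a replicate number marks a population, and every p-value here measures the spread between arrays, which may be technical.

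E proteins are basic helix-loop-helix transcription factors that bind the E-box, CANNTG, as dimers with each other or with tissue factors such as MYOD1 and MYOG in muscle. ID proteins have the helix-loop-helix but no DNA-binding region, so an E protein held by an ID protein does not bind the E-box. ID1, ID2 and ID3 are well known targets of BMP signals through SMAD proteins, and ID proteins hold back differentiation of muscle precursors. TCF4 is here the E protein gene, not the Wnt pathway factor that is also called by that name.

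The upstream sequences of the 4 ID genes are shown because the 2 calls among the members were of ID genes, ID1 for the constructs with 4-OHT and ID3 for 4-OHT under the fusion label, both in replicates 2 and 3. Each is the 250 bases before the start of the gene on its own strand, from RefSeq with build GRCh38.p14, and capitals mark CANNTG and TATAAA on either strand. ID1 is at chr20:31605039-31605288 on the plus strand, ID2 at chr2:8681806-8682055 on the plus strand, ID3 at chr1:23559502-23559751 on the minus strand and ID4 at chr6:19837120-19837369 on the plus strand.
ID1: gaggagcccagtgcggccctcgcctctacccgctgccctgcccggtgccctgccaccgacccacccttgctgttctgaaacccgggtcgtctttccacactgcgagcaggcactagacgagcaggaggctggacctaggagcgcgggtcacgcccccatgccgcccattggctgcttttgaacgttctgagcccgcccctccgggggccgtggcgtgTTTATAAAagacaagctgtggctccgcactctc
ID2: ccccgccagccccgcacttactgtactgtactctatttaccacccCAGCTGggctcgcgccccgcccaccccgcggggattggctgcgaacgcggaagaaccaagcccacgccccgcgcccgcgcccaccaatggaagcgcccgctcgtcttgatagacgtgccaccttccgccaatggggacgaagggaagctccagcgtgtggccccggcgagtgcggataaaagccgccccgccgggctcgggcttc
ID3: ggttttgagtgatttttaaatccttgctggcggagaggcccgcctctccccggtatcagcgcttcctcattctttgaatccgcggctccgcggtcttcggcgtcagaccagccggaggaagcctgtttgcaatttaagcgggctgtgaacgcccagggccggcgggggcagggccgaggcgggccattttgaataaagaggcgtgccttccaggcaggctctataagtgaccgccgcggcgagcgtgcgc
ID4: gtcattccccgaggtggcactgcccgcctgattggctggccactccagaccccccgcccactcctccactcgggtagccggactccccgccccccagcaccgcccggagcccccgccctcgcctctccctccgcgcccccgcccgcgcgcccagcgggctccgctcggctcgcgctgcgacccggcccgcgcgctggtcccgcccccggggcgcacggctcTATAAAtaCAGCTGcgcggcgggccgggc
An E-box, CANNTG, was found in the windows of ID2 and ID4, in each as CAGCTG, with its first base at -205 in ID2 and at -21 in ID4. It was absent from those of ID1 and ID3. CANNTG was held by 61.8% of 34943 RefSeq windows of this length. The letters TATAAA were found in ID1, at -31 with an overlapping match on the other strand at -33, and in ID4 at -29, and it occurred in 10.8% of all windows. GTCAC, the core that paired domains bind, was found at -104 in ID1 and on the other strand at -24 in ID3, and in 37.3% of all windows. ATTA, the core that homeodomains bind, and GGCGCC, a motif that SMAD proteins bind, were in none of the 4 windows, while 47.5% and 16.4% of all windows held them. G and C made up 66.0% of the ID1 window, 69.2% of ID2, 62.0% of ID3 and 78.8% of ID4. These are matches of letters in 1 short window per gene, and binding was not measured.

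The arrays of replicate 1 stood apart. Their 24 poly-A spike-in probe sets had median signals of 2.58 to 7.41, against 118 to 291 on the other 8 arrays. Pearson r of the log2 signals between them and those 8 was 0.815 to 0.869, against 0.957 to 0.982 among the 4. Among those 8 it was 0.867 to 0.982, so some of the 8 were nearly as unlike each other. The construct's own genes went against the labels there without 4-OHT. A PAX3 probe set read 17.6 in the replicate 1 array labelled PAX3-FKHR-ER and 49.4 in that labelled pK1, and a FOXO1 probe set 142 and 214, whereas in replicates 2 and 3 both were higher under the fusion label. The replicate 1 arrays with 4-OHT read 58.9 labelled PAX3-FKHR-ER and 57.8 labelled pK1 for PAX3. For FOXO1 they read 138 and 121, so both genes were higher under the fusion label by little. Samples are called by their labels throughout, and every result over all 12 arrays draws its direction from those labels. Of 8 skeletal muscle markers, 7 passed the signal filter and MYF5 did not, at 0.814 to 15.5. None of 5 epithelial markers passed, and of those measured for other cell types 1 of 4 haematopoietic, 2 of 4 endothelial, 1 of 3 neural and 1 of 3 melanocytic markers did.

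Signals are the deposited probe set intensities, changes are on the log2(signal + 16) scale, and probe sets with a mean signal under 36.7 were not tested. Of the 29 probe sets, 22 were tested, 6 of ID genes and 16 of E protein genes, and the other 7 are 1 of ID4, 1 of TCF12 and 5 of TCF3. In the limma fit to all 12 arrays none of the 22 passed adjusted p 0.05 in any of 5 comparisons, and none of the 13329 probe sets did, so that the called share was 0% in each. At unadjusted p under 0.05 the fit held 62 probe sets (0.465%) for 4-OHT in PAX3-FKHR-ER, 72 (0.54%) for 4-OHT in pK1, 39 (0.293%) for the difference of these changes, 277 (2.08%) for the constructs without 4-OHT and 267 (2%) for the constructs with 4-OHT. The 1 member among them was ID2 201566_x_at, for the constructs without 4-OHT. With the replicate block on 12 arrays, 0 probe sets passed again (0%). The fit to replicates 2 and 3 with that block called 186 probe sets (1.4%, of which 0.6% lower) for 4-OHT in PAX3-FKHR-ER, 0 (0%) for 4-OHT in pK1, 7 (0.0525%) for the difference, 1 (0.0075%) for the constructs without 4-OHT and 21 (0.158%, of which 0.03% lower) for the constructs with 4-OHT. ID3 was among the first and ID1 among the last, both lower, and no other member was called. The fit has 2 residual degrees of freedom for 4-OHT and 3 for the constructs, so it borrows most of its spread from other probe sets. For the constructs it blocks on replicate number alone, so arrays with and without 4-OHT of 1 construct and number count as independent. Deviations of such arrays from their group means, which include replicate 1, correlated at 0.70 to 0.82 in replicates 2 and 3. The SE and p for the constructs may therefore be too small. Between constructs, same-numbered arrays correlated at 0.15 to 0.46 there. A construct difference called paired below has this block.

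ID1, ID2 and ID3 were lower under the fusion label than under pK1 in replicates 2 and 3, with and without 4-OHT. Their 4 tested probe sets had all 4 PAX3-FKHR-ER arrays below all 4 pK1 arrays, and 6.62% of all tested probe sets did the same. Replicate 1 did not show this separation. Without 4-OHT, though, ID2 was lower under the fusion label there too, by -1.38 on 201566_x_at and -0.26 on 201565_s_at. Over all 3 replicates none of the 22 member probe sets had all 6 arrays of one construct below or above the 6 of the other. Of all tested probe sets 0.203% were lower and 0.18% higher under the fusion label in this way. Because RNA came from whole cultures, fewer cells with a transcript and less of it per cell cannot be told apart.

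In replicates 1, 2 and 3 ID1, the first described of these inhibitors, read 1614, 82.4 and 107 in PAX3-FKHR-ER with 4-OHT and 1680, 96.5 and 170 in PAX3-FKHR-ER without. The arrays labelled pK1 read 881, 385 and 423 with 4-OHT and 1571, 441 and 460 without. Replicate 1 was high in all 4 groups, while in replicates 2 and 3 the 4 fusion arrays lay far below the 4 vector arrays. Over these 8 arrays ID1 averaged 94.5 ± 17.1 in PAX3-FKHR-ER with 4-OHT, 133.3 ± 52.1 in PAX3-FKHR-ER without, 404 ± 26.5 in pK1 with and 451 ± 13.9 in pK1 without (SD, n = 2 each). The arrays of both PAX3-FKHR-ER groups overlapped. Those of both pK1 groups did not, but the share of all tested probe sets that separated 2 against 2 was not counted. With 4-OHT the construct difference was -2.03 and -1.84 by number, and -1.93 ± 0.23 (SE) on the log2 scale in the paired fit (limma adjusted p = 0.0497). Without 4-OHT it was -1.69 ± 0.23 (limma adjusted p = 0.242), with -2.02 and -1.36 by number. In replicate 1 the difference was 0.86 with 4-OHT and 0.10 without. The fit to all 12 arrays gave -1.001 ± 1.14 with 4-OHT and -1.09 ± 1.14 without (limma adjusted p = 1.00 for each). The call with 4-OHT is the only one of its alternatives that passed: without the block on the same 8 arrays the limma adjusted p was 0.0623, and over all alternatives it was 0.0497 to 1.00.

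ID2, an inhibitor with broad expression, was read by 2 probe sets that pair with that symbol alone. Its brighter probe set, 201565_s_at, read 574, 44.2 and 24.5 in PAX3-FKHR-ER with 4-OHT, 484, 28.3 and 53.4 in PAX3-FKHR-ER without, 456, 217 and 147 in pK1 with and 584, 210 and 180 in pK1 without. All arrays of replicate 1 were high, and among the rest the highest fusion array lay below the lowest vector array. The means of replicates 2 and 3 were 34.3 ± 13.9, 40.8 ± 17.7, 182 ± 49.1 and 195 ± 21.5 in that order (SD, n = 2 each), and the arrays with and without 4-OHT overlapped within each construct. The construct difference in the paired fit was -1.98 ± 0.34 with 4-OHT (limma adjusted p = 0.114) and -1.93 ± 0.34 without (limma adjusted p = 0.264), close to that of ID1 in size but not past the threshold. In replicate 1 it was 0.32 with 4-OHT and -0.26 without, and over all 12 arrays -1.21 ± 1.05 and -1.37 ± 1.05 (limma adjusted p = 1.00 for each).

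The other ID2 probe set, 201566_x_at, belongs to a class whose probes can also match other transcripts. The brightest probe sets of ID4 and TCF3, 209293_x_at and 213811_x_at, are of that class too. So are TCF3 210776_x_at, 213730_x_at and 209151_x_at. Probe set 201566_x_at read 73.7, 27.6 and 28.8 in PAX3-FKHR-ER with 4-OHT, 70.6, 25.2 and 26.5 in PAX3-FKHR-ER without, 40.2, 68.7 and 87.0 in pK1 with and 210, 94.1 and 112 in pK1 without. Without 4-OHT all 3 fusion arrays were below all 3 vector arrays, replicate 1 included, with differences of -1.38, -1.42 and -1.59 by number. Of all tested probe sets 3.08% separated in this way, and the fit to 12 arrays gave -1.46 ± 0.41 (limma adjusted p = 1.00). With 4-OHT replicate 1 went the other way, at 0.67, against -0.96 and -1.20 in replicates 2 and 3. It is 1 of 2 among the 22 tested member probe sets whose 4-OHT change had one sign in all 3 fusion pairs and the other in all 3 vector pairs, against 3.12% of all tested.

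ID3, which resembles ID1 in sequence and in its control by BMP signals, read 1125, 122 and 253 in PAX3-FKHR-ER with 4-OHT and 1270, 211 and 394 in PAX3-FKHR-ER without. Under pK1 it read 810, 435 and 434 with 4-OHT and 963, 478 and 432 without. In replicates 2 and 3 the 4 fusion arrays were again the 4 lowest, and the array with the fusion and 4-OHT in replicate 2 was the lowest of all. Group means of these replicates were 187 ± 92.2, 303 ± 129, 435 ± 0.412 and 455 ± 32.8 in the same order (SD, n = 2 each). The arrays with and without 4-OHT overlapped within each construct. The paired construct difference was -1.23 ± 0.32 with 4-OHT (limma adjusted p = 0.206) and -0.62 ± 0.32 without (limma adjusted p = 0.566). In replicate 1 it was 0.47 with 4-OHT and 0.39 without, and over all 12 arrays -0.66 ± 0.76 and -0.28 ± 0.76 (limma adjusted p = 1.00 for each).

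**Figure D1:**
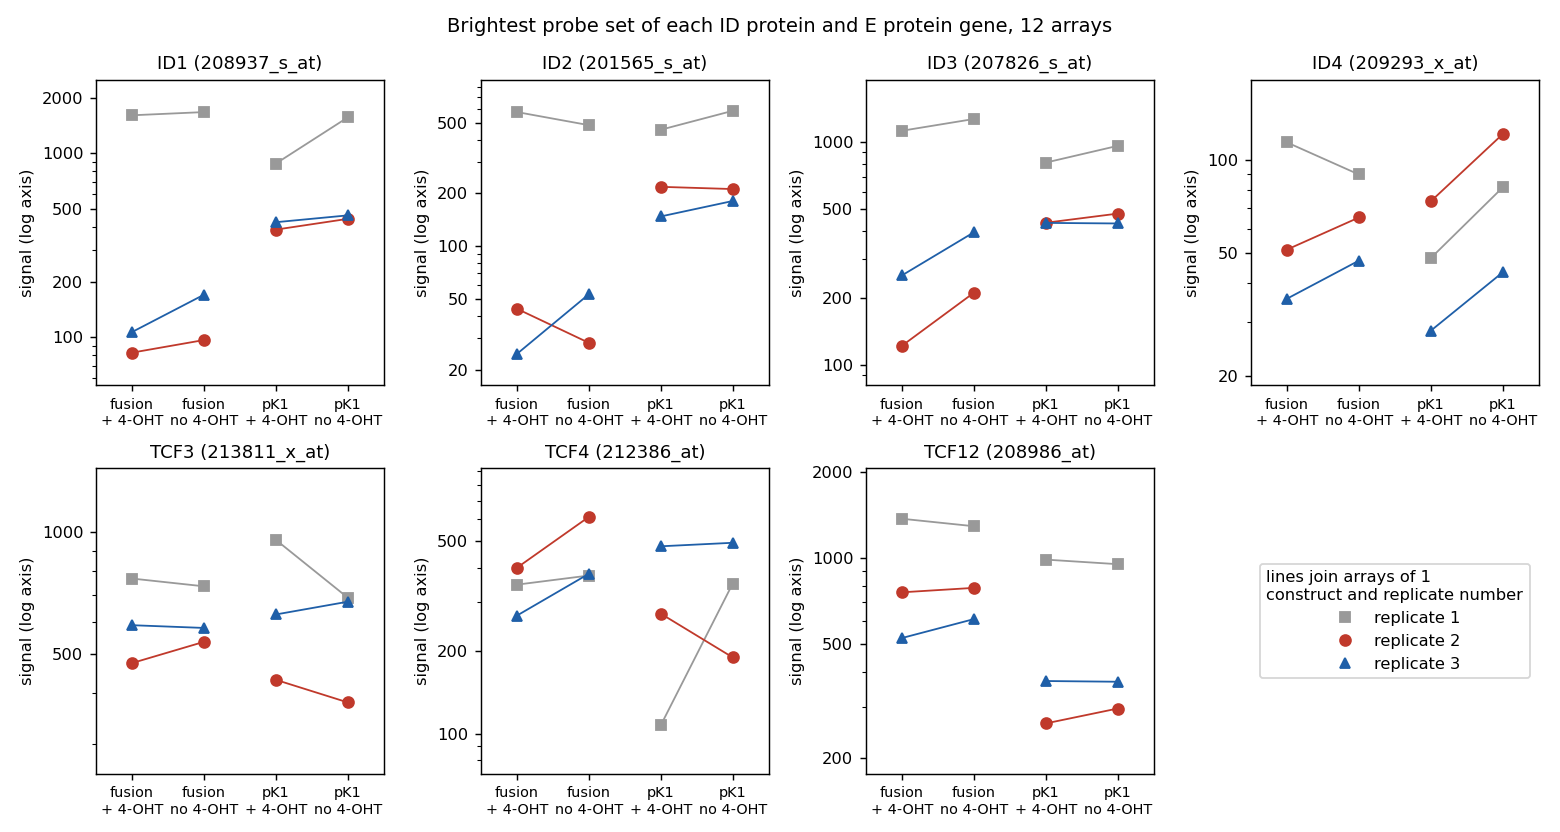
Signal (log axis) of the brightest probe set of each gene on the 12 arrays, in the 4 groups from PAX3-FKHR-ER with 4-OHT to pK1 without, with lines joining the arrays of 1 construct and replicate number. In replicates 2 and 3 ID1, ID2 and ID3 sit lower under the fusion label (ID1 at 82.4 to 170 against 385 to 460) and TCF12 sits higher (525 to 786 against 264 to 371), while the grey points of replicate 1 are above all others for ID1, ID2, ID3 and TCF12.

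ID3 was the 1 member that passed the test for 4-OHT under the fusion label, in replicates 2 and 3. By number the change of ID3 was -0.17, -0.72 and -0.61 under the fusion label and -0.25, -0.13 and 0.01 under pK1. ID3 fell by 0.66 ± 0.13 (SE) on the log2 scale in the paired fit (limma adjusted p = 0.0484), while its change in pK1 was -0.06 ± 0.13 (limma adjusted p = 0.966). The difference of these changes, -0.60 ± 0.18, did not pass (limma adjusted p = 0.324), so a response of ID3 that depends on the fusion was not shown by the test. Over all 12 arrays the change was -0.50 ± 0.76 without the block (limma adjusted p = 1.00) and -0.50 ± 0.13 with it (limma adjusted p = 0.627). Without the block, that change turned to 0.17 without the replicate 2 array labelled PAX3-FKHR-ER with 4-OHT, and to 0.19 without the replicate 1 array of the untreated fusion label. Over its alternatives the limma adjusted p was 0.0484 to 1.00. The array labelled PAX3-FKHR-ER with 4-OHT in replicate 2 read 3175 for a probe set of ribosomal RNA that should not be copied, against 35.7 to 549 on the other 11 arrays. The 549 was read on the untreated fusion array of replicate 2, its partner. In replicate 3 that probe set read 97.9 with 4-OHT and 208 without under the fusion label, and ID3 changed by -0.61 there. Whether the ribosomal RNA signal bears on the change of ID3 was not tested.

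The other ID genes did not pass this test. ID1 changed by -0.06, -0.19 and -0.60 with 4-OHT under the fusion label and by -0.82, -0.19 and -0.12 under pK1, negative in all 6 pairs, with -0.40 ± 0.15 in the paired fusion fit (limma adjusted p = 0.337). The brighter ID2 probe set changed by 0.24, 0.44 and -0.78 under the fusion label and by -0.35, 0.04 and -0.26 under pK1, with no common sign.

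ID4, the family member best known from the nervous system, differed from the other ID genes in that its constructs overlapped in replicates 2 and 3. Its brightest probe set, 209293_x_at, read 114, 51.3 and 35.6 in PAX3-FKHR-ER with 4-OHT, 89.9, 65.2 and 47.3 in PAX3-FKHR-ER without, 48.2, 73.6 and 28.0 in pK1 with and 81.7, 122 and 43.3 in pK1 without. It changed with 4-OHT by -0.61, -0.62 and -0.43 under pK1 and by 0.30, -0.27 and -0.29 under the fusion label, and limma adjusted p was 0.844 for pK1 in the paired fit. A second ID4 probe set, 209291_at, read 111, 7.69 and 12.1 in PAX3-FKHR-ER with 4-OHT, 139, 14.4 and 2.47 in PAX3-FKHR-ER without, 45.8, 161 and 7.74 in pK1 with and 94.4, 135 and 6.04 in pK1 without. In replicates 2 and 3 only the vector arrays of replicate 2 were bright, and the paired construct differences of -1.33 ± 0.80 and -1.28 ± 0.80 with and without 4-OHT rest on them. Replicate 1 went the other way, at 1.04 with 4-OHT and 0.49 without, and over all 12 arrays the differences were -0.54 ± 1.03 and -0.69 ± 1.03. The third, 209292_at, reached 27.9 at most and was not tested.

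**Figure D2:**
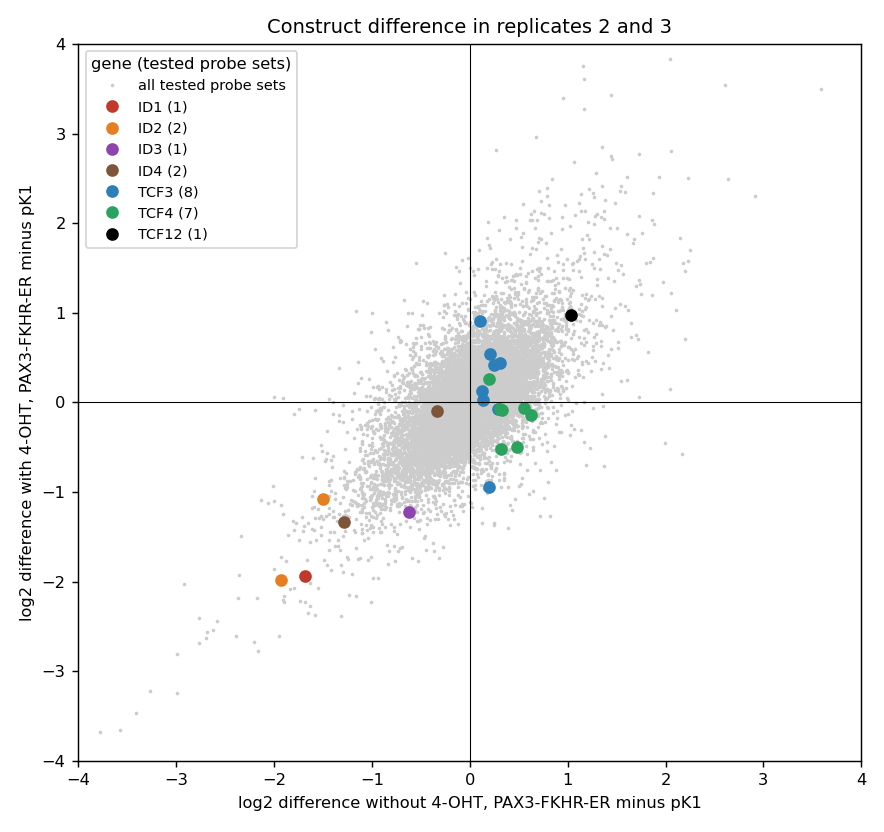
Log2 difference of PAX3-FKHR-ER minus pK1 in replicates 2 and 3, without 4-OHT on the horizontal and with 4-OHT on the vertical axis, for all 13329 tested probe sets in grey and the 22 of the ID and E proteins in colour. ID1 lies at -1.69 and -1.93 and the brighter ID2 probe set at -1.93 and -1.98, toward the lower left, and TCF12 lies at 1.03 and 0.98 in the upper right.

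Of the E proteins, TCF12 (also called HEB), a partner of myogenic factors in muscle, was higher under the fusion label. It read 1372, 758 and 525 in PAX3-FKHR-ER with 4-OHT, 1292, 786 and 611 in PAX3-FKHR-ER without, 987, 264 and 371 in pK1 with and 951, 297 and 369 in pK1 without. Within each replicate number, replicate 1 included, every fusion array was above both vector arrays, as in 1.97% of all tested probe sets. In replicates 2 and 3 the constructs did not overlap, which 7.25% of all tested probe sets shared in this direction, so that 1 such probe set of 22 is no result about the members together. The paired difference in those replicates was 0.98 ± 0.28 with 4-OHT (limma adjusted p = 0.239) and 1.03 ± 0.28 without (limma adjusted p = 0.376). With all 12 arrays and the replicate block it was 0.81 ± 0.22 with 4-OHT and 0.83 ± 0.22 without (limma adjusted p = 0.704 and 0.661). TCF12 moved little with 4-OHT, by 0.09, -0.05 and -0.21 under the fusion label and by 0.05, -0.16 and 0.01 under pK1. The means of replicates 2 and 3 were 641 ± 165 with and 698 ± 124 without 4-OHT under the fusion label, and 317 ± 75.9 with and 333 ± 50.6 without under pK1 (SD, n = 2 each), and the arrays with and without 4-OHT overlapped within each construct. The other TCF12 probe set, 215611_at, lay at 1.03 to 10.9 and was not tested.

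TCF4, an E protein with broad expression, read lower under the fusion label once 4-OHT was added on nearly all of its probe sets, but none passed the test. All 7 probe sets were tested, and they read 1 gene, so they are not separate evidence. Under the fusion label 6 of 7 were lower in all 3 pairs, against 14.9% of all tested probe sets, and 7 of 7 in replicates 2 and 3, against 31% of all. Under pK1 1 of 7 was lower in all 3 pairs, against 16.6% of all. The median change of the 7 was -0.23, -0.59 and -0.53 in replicates 1, 2 and 3 under the fusion label and -1.16, 0.19 and -0.04 under pK1. The most negative of these medians was thus in the vector arrays of replicate 1, where single probe sets changed by -0.46 to -1.57.

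The brightest TCF4 probe set, 212386_at, read 348, 400 and 268 in PAX3-FKHR-ER with 4-OHT, 375, 613 and 381 in PAX3-FKHR-ER without, 107, 273 and 479 in pK1 with and 351, 189 and 494 in pK1 without. Each fusion array with 4-OHT was below its partner without, but the 4 groups overlapped. Paired over replicates 2 and 3, it changed by -0.54 ± 0.15 under the fusion label (limma adjusted p = 0.172) and by 0.23 ± 0.15 under pK1 (limma adjusted p = 0.883), a difference of -0.76 ± 0.22 (limma adjusted p = 0.295). Over all 12 arrays the changes were -0.39 and -0.37, a difference of -0.02. The 7 probe sets together ran from -0.81 to -0.40 under the fusion label, with limma adjusted p from 0.102 to 0.478, and from -0.46 to 0.25 under pK1. The construct difference of 212386_at was 1.62 and -0.36 without 4-OHT in replicates 2 and 3, with no common sign.

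**Figure D3:**
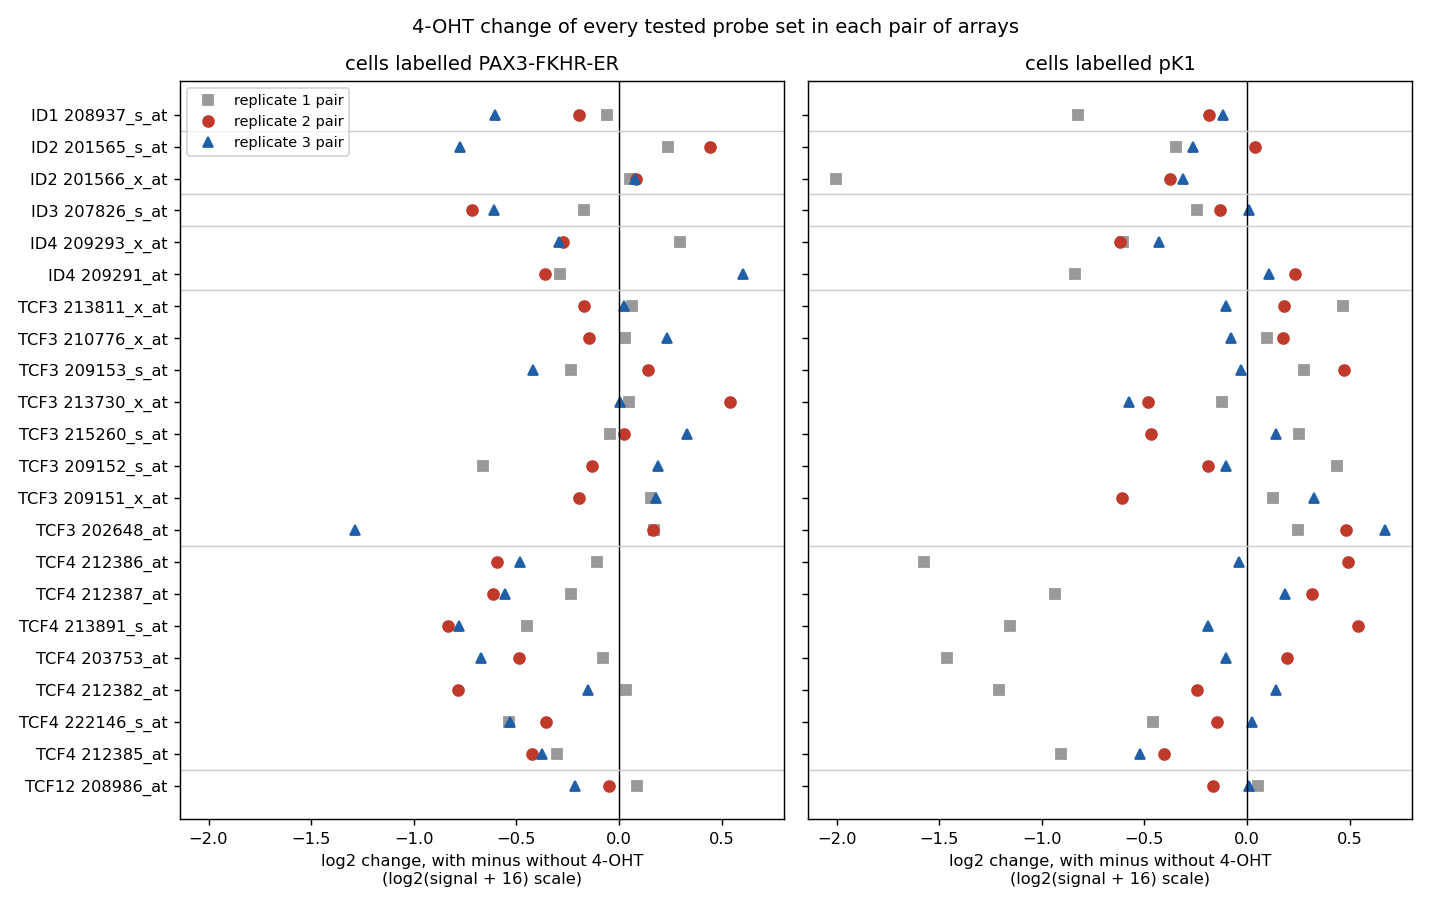
Log2 change with 4-OHT (with minus without) of all 22 tested probe sets, one row each, in the 3 pairs of arrays labelled PAX3-FKHR-ER (left) and the 3 labelled pK1 (right). The TCF4 rows lie left of 0 under the fusion label in replicates 2 and 3, with medians of -0.59 and -0.53, and ID3 lies at -0.72 and -0.61 there, while TCF3 rows scatter on both sides.

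TCF3 (E2A), an E protein that pairs with MYOD1 and MYOG, had 13 probe sets, 8 of them tested, and showed no common direction. Its brightest, 213811_x_at, read 768, 475 and 589 in PAX3-FKHR-ER with 4-OHT, 735, 536 and 580 in PAX3-FKHR-ER without, 957, 432 and 626 in pK1 with and 689, 380 and 673 in pK1 without. All 4 groups overlapped, and the means of replicates 2 and 3 were within 526 to 558. The 8 probe sets changed with 4-OHT by -0.56 to 0.27 under the fusion label and by -0.53 to 0.58 under pK1 in the paired fit, with limma adjusted p of 0.569 or more, and by -0.32 to 0.20 and -0.39 to 0.47 over all 12 arrays. Probe set 213730_x_at read 584, 406 and 409 in PAX3-FKHR-ER with 4-OHT and 519, 166 and 263 in pK1 with 4-OHT. With 4-OHT it was higher under the fusion label in all 3 numbers, and the share of all tested probe sets that were so was not counted. The paired difference was 0.91 ± 0.23 in replicates 2 and 3 (limma adjusted p = 0.201), and 0.66 ± 0.42 over all 12 arrays (limma adjusted p = 1.00). Without 4-OHT its construct difference was -0.004, 0.19 and 0.03 by number. TCF3 probe sets therefore disagree, and 5 of the 13 lay under the filter.

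One of those 5, 216647_at, was singled out after its values had been seen. Its 4-OHT change was 0.51, 1.06 and 1.27 in the fusion pairs and -0.72, -0.12 and -0.37 in the vector pairs, so it too had opposite signs, under the filter. It read 33.6, 45.8 and 57.3 in PAX3-FKHR-ER with 4-OHT, 18.7, 13.7 and 14.4 in PAX3-FKHR-ER without, 7.70, 11.1 and 33.2 in pK1 with and 23.1, 13.4 and 47.6 in pK1 without. All 3 fusion arrays with 4-OHT were above all 3 without. The same held for 1.7% of the tested probe sets, but 216647_at was not among them. The share of probe sets under the filter that did so was not counted. With no signal filter its change was 0.95 ± 0.34 on 12 arrays (limma adjusted p = 1.00). It was among the 1.86% of 22215 probe sets with an unadjusted p under 0.05.

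Replicate 1 bore on the members unequally. Its 4 arrays were above the other 8 for ID1, for 1 of 2 ID2 probe sets, for ID3, for 6 of 8 tested TCF3 probe sets and for TCF12, and for none of ID4 or TCF4, while 11% of all tested probe sets showed this. What sets these arrays apart and its part in the levels of the members was not tested.

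The genes around the ID and E proteins were taken as 4 lists. The lists and the use of replicates 2 and 3 were chosen with earlier results of these data known. Each list is described by the brightest tested probe set of each gene in the paired fit to replicates 2 and 3. For 4-OHT in PAX3-FKHR-ER that fit held 65 higher and 56 lower of 8124 genes, with a median change of -0.03, and the fit to 12 arrays called none in any list. For the difference of 4-OHT changes the paired fit held 2 higher and 3 lower of 8124 genes, and 0 in each list. A response that depends on the fusion was thus not shown by the test for any list gene. Of the 25 BMP and SMAD genes 17 were tested, with 2 higher, 0 lower and a median of 0.07. Both that rose encode secreted proteins that bind and block BMP or activin ligands. GREM1, gremlin, read 19.4, 255 and 283 in PAX3-FKHR-ER with 4-OHT, 17.3, 96.5 and 61.7 in PAX3-FKHR-ER without, 96.0, 20.5 and 33.3 in pK1 with and 35.5, 19.2 and 17.7 in pK1 without. It was highest in the fusion arrays with 4-OHT in replicates 2 and 3, but not in replicate 1, and it rose by 1.61 ± 0.25 (limma adjusted p = 0.0197). FST, follistatin, read 108, 505 and 328 in PAX3-FKHR-ER with 4-OHT and 119, 217 and 118 in PAX3-FKHR-ER without, and rose by 1.26 ± 0.15 (limma adjusted p = 0.00808). It changed by -0.15 under pK1. SMAD7, an inhibitory SMAD that BMP and TGF-beta signals induce, was at -0.62 ± 0.28 and did not pass (limma adjusted p = 0.435). GREM1 was also higher under the fusion label with 4-OHT, by 2.75 ± 0.30 (limma adjusted p = 0.0385), in the comparison in which ID1 was lower. By number that difference was -1.66, 2.90 and 2.60, and over all 12 arrays 1.28. Without 4-OHT the construct difference of GREM1 was -0.63, 1.68 and 1.20 by number. The 4-OHT changes in replicate 1 were 0.09 for GREM1 and -0.12 for FST under the fusion label, against 1.12 and -0.22 under pK1, and over all 12 arrays the fusion changes were 1.10 and 0.80.

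Of 20 tissue factors that pair with E proteins 4 were tested, with 0 higher, 1 lower and a median of -0.33. MYOG, myogenin, read 53.0, 20.8 and 19.7 in PAX3-FKHR-ER with 4-OHT, 13.4, 298 and 172 in PAX3-FKHR-ER without, 35.6, 8.82 and 101 in pK1 with and 32.8, 10.3 and 94.9 in pK1 without. In replicates 2 and 3 it was low with 4-OHT and high without under the fusion label, and it fell by 2.74 ± 0.25 (limma adjusted p = 0.00327), whereas replicate 1 went the other way, and the change over all 12 arrays was -1.42. MYOD1, the factor that starts the myogenic programme, read 1216, 1912 and 1809 in PAX3-FKHR-ER with 4-OHT and 2098, 197 and 322 in pK1 with 4-OHT. Its construct difference of 2.80 ± 0.29 passed with 4-OHT in replicates 2 and 3 (limma adjusted p = 0.0385), replicate 1 went the other way, and the difference over all 12 arrays was 1.61. Without 4-OHT the construct difference of MYOD1 was already 2.55 and 1.56 in replicates 2 and 3, and -0.14 in replicate 1. Its 4-OHT change of 0.58 ± 0.12 under the fusion label did not pass (limma adjusted p = 0.0625), nor did that of MSC, musculin, at -0.36.

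Of 16 other repressors of basic helix-loop-helix activity 11 were tested, with 0 higher, 1 lower and a median of -0.01. HEY1, a Notch target that represses E-box genes, read 3770, 545 and 1218 in PAX3-FKHR-ER with 4-OHT and 3840, 1508 and 2351 in PAX3-FKHR-ER without, and fell by 1.19 ± 0.15 (limma adjusted p = 0.00892). Under pK1 HEY1 read 1896, 2717 and 2375 with 4-OHT and 3471, 2181 and 2379 without. Its replicate 1 arrays were the brightest under the fusion label, as for ID1 and ID3. In replicate 1 HEY1 changed by -0.03 under the fusion label and by -0.87 under pK1. Its pK1 change was 0.16 in replicates 2 and 3 but -0.18 over all 12 arrays, where the fusion change was -0.80. SNAI2, a zinc finger that competes for E-boxes, was at 0.63 ± 0.15 (limma adjusted p = 0.0981), MDFIC, an inhibitor of the I-mfa family, at 0.56 (limma adjusted p = 0.322), and CBFA2T2, a corepressor, at 0.47 (limma adjusted p = 0.605).

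Of 15 muscle genes with E-box enhancers 14 were tested, with 0 higher, 4 lower and a median of -0.57, against -0.04 for the same genes in pK1. CKM, muscle creatine kinase, read 6.93, 110 and 36.7 in PAX3-FKHR-ER with 4-OHT and 4.98, 398 and 166 in PAX3-FKHR-ER without, and fell by 1.75 ± 0.19 (limma adjusted p = 0.00782). MYL1, a myosin light chain, fell by 1.03 ± 0.12 (limma adjusted p = 0.00808), ACTC1, cardiac actin, by 1.00 ± 0.13 (limma adjusted p = 0.00892), and MYH3, embryonic myosin heavy chain, by 1.55 ± 0.28 (limma adjusted p = 0.0329). MEF2C, a partner of the myogenic factors, was at -0.85 (limma adjusted p = 0.112). With replicate 1 included these changes were smaller. The replicate 1 pair under the fusion label changed by 0.13 for CKM, -0.44 for MYL1, 0.69 for ACTC1 and -0.71 for MYH3. Over all 12 arrays the changes were -1.13, -0.83, -0.44 and -1.27 in that order, none called, and the median of the 14 genes was -0.31 under the fusion label and -0.05 under pK1. MYL1 changed by -0.79 under pK1 over all 12 arrays, with its replicate 1 pair at -2.23. Between constructs without 4-OHT, paired over replicates 2 and 3, 14 muscle genes were higher under the fusion label and 0 lower (median 1.25). With 4-OHT 10 were higher and 4 lower (median 0.56), and none was called in either comparison. By number, replicates 2 and 3 had opposite signs with 4-OHT, at 2.62 and -2.50 for CKM and 2.63 and -1.88 for MYL1. For ACTC1 they gave 2.28 and -0.78, and for MYH3 1.37 and -3.77. The falls with 4-OHT in replicates 2 and 3 stood in the arrays in which ID3 fell, and no test tied them to any member.

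**Figure D4:**
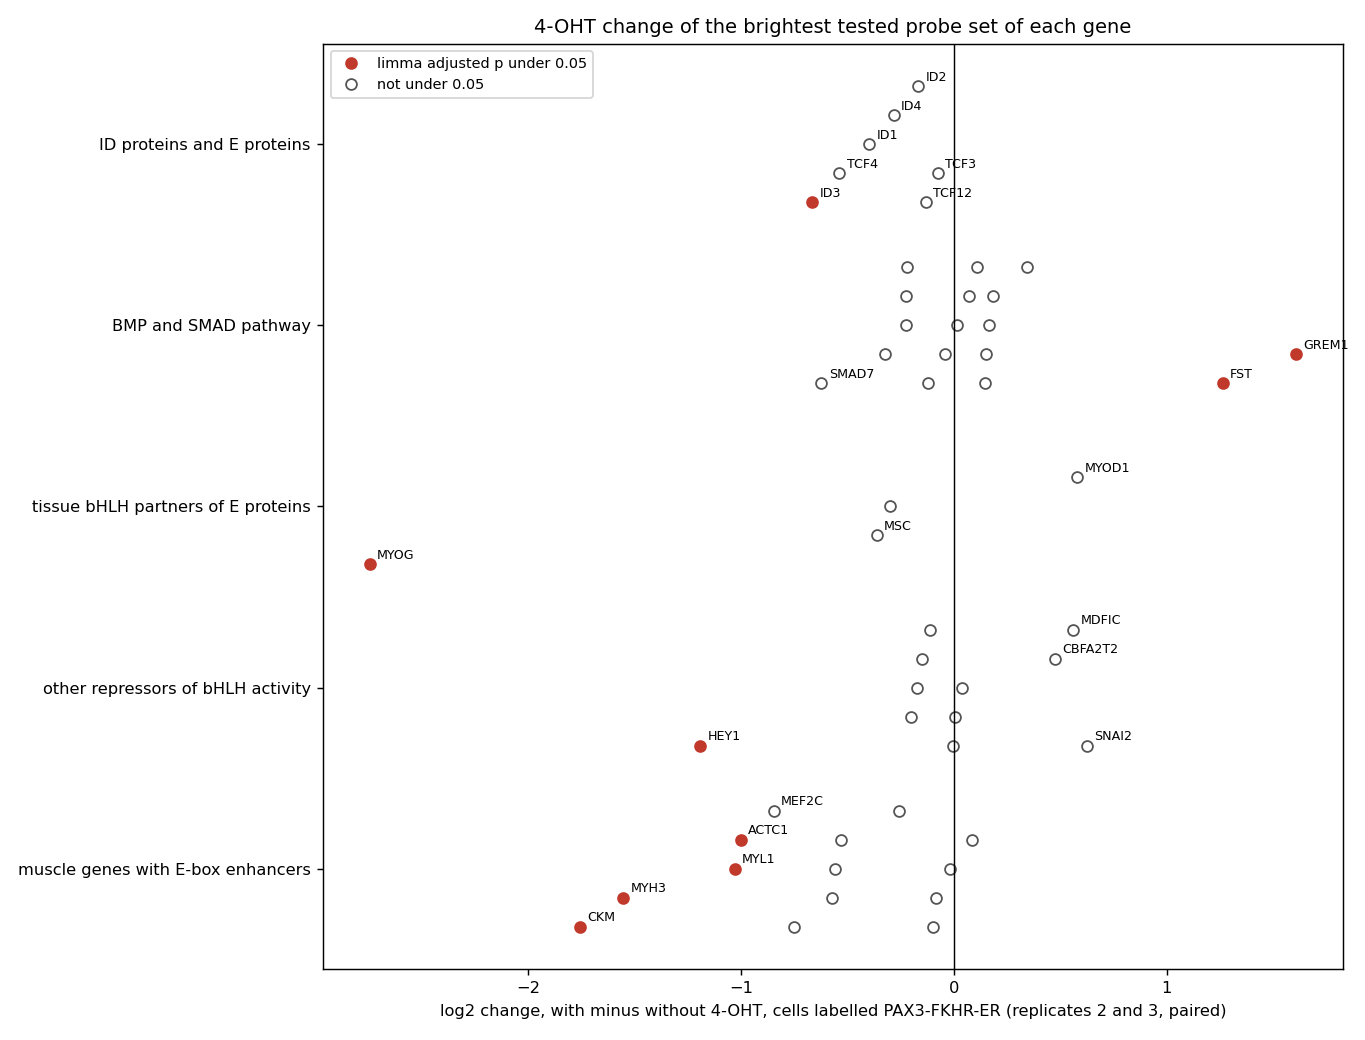
Log2 change with 4-OHT (with minus without) in cells labelled PAX3-FKHR-ER, paired fit to replicates 2 and 3, of the brightest tested probe set of each gene, for the ID and E proteins and 4 lists of related genes, with height inside a row carrying no meaning. Filled points passed limma adjusted p 0.05, and among the 7 members only ID3 at -0.66 is filled, with GREM1 at 1.61 and FST at 1.26 on the right and MYOG at -2.74 on the left.

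As a description, the genes whose brightest probe set followed a member most closely were found by Pearson r over the 12 arrays, after the mean of each replicate number had been subtracted, among 8124 genes and with no test. For ID1 they were GM2A (r = 0.98), ARHGEF18 and ATP5F1C, and for ID2 they were SEPTIN8 (r = 0.98), GM2A and LOC728392. ID3 was followed by JUP (r = 0.99), EXOC2 and LIPA. ID4 was followed by MAPK13 (r = 0.94), PPM1D and MACO1. Among the E proteins, TCF12 was followed by PDLIM3 (r = 0.98), DERA and ATP2B1, TCF4 by MYL1 (r = 0.94), RERE and BLCAP, and TCF3 by DPM1 (r = 0.88), ECE1 and ELOC. GM2A was thus shared by ID1 and ID2. The arrays share constructs, treatment and replicate number, so these values are not independent.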

How the data were processed

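The deposited values are probe set intensities of 12 arrays on a linear scale, made by the authors in MAS5 with GCOS (as the submitters' processing notes name them), at settings not given in the sources used here. Total RNA was labelled with biotin, per the labels' protocols. Of 22283 probe sets 68 controls were left out, and symbols came from the platform annotation. The fits used log2(signal + 16) with the 40% dimmest probe sets left out (mean under 36.7), limma 3.58.1 in R 4.3.3, 4 group means, eBayes with an intensity trend, two-sided tests and Benjamini-Hochberg adjustment over 13329 probe sets in each comparison. The procedure was tested on simulated data that held no shift of replicate 1, and for 4-OHT in PAX3-FKHR-ER alone. It therefore does not cover the construct comparisons or the spread that replicate 1 adds. With 12 arrays, their number limits the precision, and scaling would hide a change in total RNA.

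Deviations from group means correlated between same-numbered arrays at 0.70 to 0.85 between treatments and 0.15 to 0.69 between constructs. The group means include replicate 1, which stood apart, and arrays of different numbers were not correlated. These values therefore cannot show that the numbers pair the arrays, which was assumed. The calls of ID1 and ID3 rest on this assumption. The block was the pair of arrays of 1 construct and number for 4-OHT, and the number for constructs. Alternatives were the pseudocount, filter, normalization, trend, block, replicates 2 and 3 alone and each array left out. A further 3 settings were chosen after seeing the data. Members, lists and the use of replicates 2 and 3 were chosen with earlier results of these data known.

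Every probe set with 1 member symbol was described, the brightest leading its gene. From each list the 3 genes with the smallest p for 4-OHT in PAX3-FKHR-ER in each of both fits were named, and for each member the 3 genes most like it. 1 probe set that pairs ID2 with another symbol was left out.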

Additional observations from a re-analysis of the deposited data

Results flagged for a closer look

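In 2 of the 22 tested probe sets the 4-OHT change had one sign in all 3 pairs labelled PAX3-FKHR-ER and the opposite sign in all 3 labelled pK1, which 3.12% of all tested probe sets (416) also showed. For ID2 201566_x_at the changes were 0.05, 0.08 and 0.08 under the fusion label and -2.004, -0.38 and -0.31 under pK1. Their difference over 12 arrays was 0.97 (limma adjusted p = 1.00), and limma adjusted p was 0.725 in the paired fit to replicates 2 and 3. For TCF3 213730_x_at the difference was 0.59 (limma adjusted p = 1.00), and limma adjusted p was 0.279 in that paired fit. Neither difference passed, and no group was large enough to look for a single array far from the rest.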

How the results depend on the processing

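The brightest probe sets of the 7 genes were followed in 5 comparisons, 35 changes in all. Under the 10 other planned settings 329 of 345 values kept their direction and side of the threshold. The count of members called moved from 0 to 1 with replicates 2 and 3 and the replicate block, for 4-OHT in PAX3-FKHR-ER (ID3) and for the constructs with 4-OHT (ID1). Of the 3 settings added later on that fit, ID3 passed with quantile normalization (count 1, limma adjusted p = 0.0489) and not with no signal filter (0.115) or no intensity trend (0.171), and ID1 passed in none (0.0761, 0.0633 and 0.0668). In replicates 2 and 3, with and without the replicate block, signs turned for the difference of 4-OHT changes of ID1 (-0.24) and ID2 (-0.055), for the constructs with 4-OHT of ID4 (-0.092), TCF3 (0.023) and TCF4 (-0.14), and for 4-OHT in pK1 of TCF4 (0.23). ID2 turned to 0.014 for 4-OHT in PAX3-FKHR-ER with log2(signal + 64), and TCF12 to 0.066 for 4-OHT in pK1 with equal medians. The cause was not tested. The block on 12 arrays changed no call.

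With 1 array left out 64 of 420 values turned sign, in 25 changes, and none was called. For 4-OHT in PAX3-FKHR-ER the change ran from -1.58 to 0.90 for ID1, from -1.23 to 1.03 for ID2, from -1.36 to 0.19 for ID3, from -0.47 to 0.20 for ID4, from -0.43 to 0.25 for TCF12, from -0.20 to 0.13 for TCF3. For 4-OHT in pK1 the change ran from -0.74 to 0.21 for ID1, from -0.62 to 0.31 for ID2, from -0.41 to 0.23 for ID3, from -0.57 to 0.46 for TCF12, from -0.11 to 0.45 for TCF3, from -0.84 to 0.17 for TCF4. For the difference of these changes the change ran from -1.20 to 1.28 for ID1, from -1.04 to 1.22 for ID2, from -1.23 to 0.31 for ID3, from -0.52 to 0.51 for TCF12, from -0.48 to 0.078 for TCF3, from -0.56 to 0.44 for TCF4. For the constructs with 4-OHT the change ran from -1.52 to 0.0054 for ID3, from -0.10 to 0.57 for ID4, from -0.36 to 0.20 for TCF3, from -0.11 to 0.89 for TCF4. For the constructs without 4-OHT the change ran from -0.98 to 0.27 for ID3, from -0.51 to 0.10 for ID4, from -0.15 to 0.26 for TCF3.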
